A study of Mus musculus with 6 samples.

Results

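Dpp4 Pi16 fibroblast progenitor nuclei were picked out of white adipose tissue, chosen by their own UMI counts of 17 genes. Over 500 genes, over 1000 unique molecular identifiers (UMIs, each standing for 1 captured RNA molecule) and under 15% mitochondrial UMIs were required of a nucleus. It then had to hold at least 4 UMIs over the fibroblast genes Pdgfra, Dcn, Fbn1, Col1a2 and Lama2, at least 2 over Dpp4, Pi16, Sema3c, Cd55 and Anxa3, and at most 1 over Ptprc, Skap1, Pecam1, Ptprb, Epcam, Upk3b and Plin1, genes of leukocytes, endothelium, epithelium, mesothelium and adipocytes. This gave 784 progenitor nuclei, which are 2.90% of the 27074 filtered nuclei and 44.8% of the 1750 nuclei that met the fibroblast and exclusion parts (fibroblast nuclei). The remaining 966 are called other fibroblast nuclei below.

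In mouse fat, PDGFRα-positive stromal cells hold the adipocyte precursors. Those that carry the surface protease DPP4 (CD26) and the secreted peptidase inhibitor PI16 lie in the connective tissue sheaths around fat lobules and large vessels and are regarded as early, multipotent progenitors. They can give rise to committed preadipocytes, which carry ICAM1 or COL15A1 and begin to express Pparg, and cells of this kind with Dpp4 and Pi16 have been described in many organs.

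The study asked how ageing and depot shape white adipose tissue, by sequencing RNA of single nuclei from female C57BL/6J mice with no genetic or drug treatment. Of the 3 groups used here, each with 2 libraries, one was inguinal subcutaneous fat (SAT) of mice of 2 months, the next SAT of mice of 24 months, and the last gonadal visceral fat (VAT) of 24-month mice. The labels give 24 months for the older mice, where the design text of the series gives 26, and the labels were followed. Every library carries the cell type label of adipocytes although nuclei of the whole tissue were sequenced, the libraries are not tied to mice, and VAT of young mice was not used here, so that age was compared within SAT and depot within old mice.

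Progenitor nuclei numbered 82 and 111 in SAT at 2 months, 24 and 61 in SAT at 24 months, and 449 and 57 in VAT. Their summed depth ran from 41992 UMIs in SAT 24 months replicate 1 to 786844 in VAT replicate 1, so that 1 UMI was worth 23.8 and 1.27 CPM (the UMIs of a gene scaled to a common total of UMIs over the summed progenitor nuclei). Median depth per nucleus was 1442.5 to 1717 UMIs. The median mitochondrial share was 1.02% and 0.934% in SAT at 2 months, 1.85% and 3.92% in SAT at 24 months, and 2.97% and 4.5% in VAT. In pairs, libraries had 29 to 61 barcodes in common, at most 0.769% of the smaller library, and 0 of these were progenitor nuclei in both.

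The nuclei of VAT replicate 2 stood apart from the label. Pi16 was found with 13 UMIs in 14.0% of its 57 progenitor nuclei, against 50% to 70.3% of nuclei in the other 5 libraries. Dpp4 and Pi16 were seen together in 27.9% to 40.5% of progenitor nuclei of those 5 libraries, but in 0 of 57 nuclei of VAT replicate 2, which allows a share of nuclei with UMIs of both of up to 5.26% (3 nuclei). Of the nuclei of VAT replicate 2, 42.1% met the progenitor threshold with exactly 2 UMIs, against 9.01% to 33.3% elsewhere. At least 2 UMIs of genes listed for mesothelium, ovary or oviduct were held by 75.4% of its progenitor nuclei, against 26.9% in VAT replicate 1 and 0 to 6.31% in SAT. This was shared by the whole library, as 68.7% of all its filtered nuclei and 40.2% of its other fibroblast nuclei held them too. Of all filtered nuclei, 9.29% did in VAT replicate 1 and 6.18% to 11.6% in SAT. For this library the name fits the rule but not Pi16, and the values of the 2 VAT libraries are given apart below. Tests and counts for VAT replicate 1 alone stand beside many, not all, of the main ones.

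The genes of the rule chose the nuclei, so their values are a description. Nuclei with at least 1 Pi16 UMI made up 68.3% and 70.3% of the progenitor nuclei in SAT at 2 months, 50% and 52.5% in SAT at 24 months and 65.0% in VAT replicate 1. Dpp4 was found in 42.7% to 57.7% of progenitor nuclei of all 6 libraries. Sema3c, a secreted semaphorin, was found in 45% to 77.7%, Cd55, which protects cells from complement, in 32.4% to 75.0%, and Anxa3, a calcium-dependent lipid-binding protein, in 19.3% to 75.7%. Few nuclei carried the whole set, as all 5 genes were seen in 7.21% to 15.8% of progenitor nuclei of 5 libraries and in 0 of VAT replicate 2. Neither Dpp4 nor Pi16 was seen in 15.4% to 33.3%.

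Free RNA gives a nucleus UMIs of genes that it does not express, so the filtered nuclei outside the fibroblast class were counted too. These include nuclei that held the fibroblast genes but failed on the exclusion genes, so their values are not free RNA alone. At a median depth of 1371 to 2061 UMIs per nucleus, Pi16 was found in 2.24% to 4.54% of them in SAT, in 20.6% in VAT replicate 1 and in 0.594% in VAT replicate 2. Dpp4, which leukocytes and other cells express themselves, was found in 2.66% to 19.0%. Both genes together were found in 0.102% to 1.72% of these nuclei. The rule selected on both genes, so a higher share in progenitor nuclei was fixed by it.

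Cells of other kinds were looked for with gene lists, which were chosen with earlier results of these data known. The summed level of 10 mesothelial genes in progenitor nuclei was 0 to 115 CPM in SAT, 1085 CPM in VAT replicate 1 and 2224 CPM in VAT replicate 2. The 13 ovary and oviduct genes summed to 0 to 93.7 CPM in 5 libraries and to 1169 CPM in VAT replicate 2. The adipocyte list was highest in SAT 24 months replicate 2 (2092 CPM) and VAT replicate 1 (1563 CPM) and at 238 to 975 CPM in the other 4 libraries. Immune genes summed to 1069 and 1516 CPM in young SAT, against 572 and 641 CPM at 24 months and 398 and 868 CPM in VAT, and they were highest in the non-fibroblast nuclei of the same young libraries too (5509 and 6401 CPM).

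**Figure D1:**
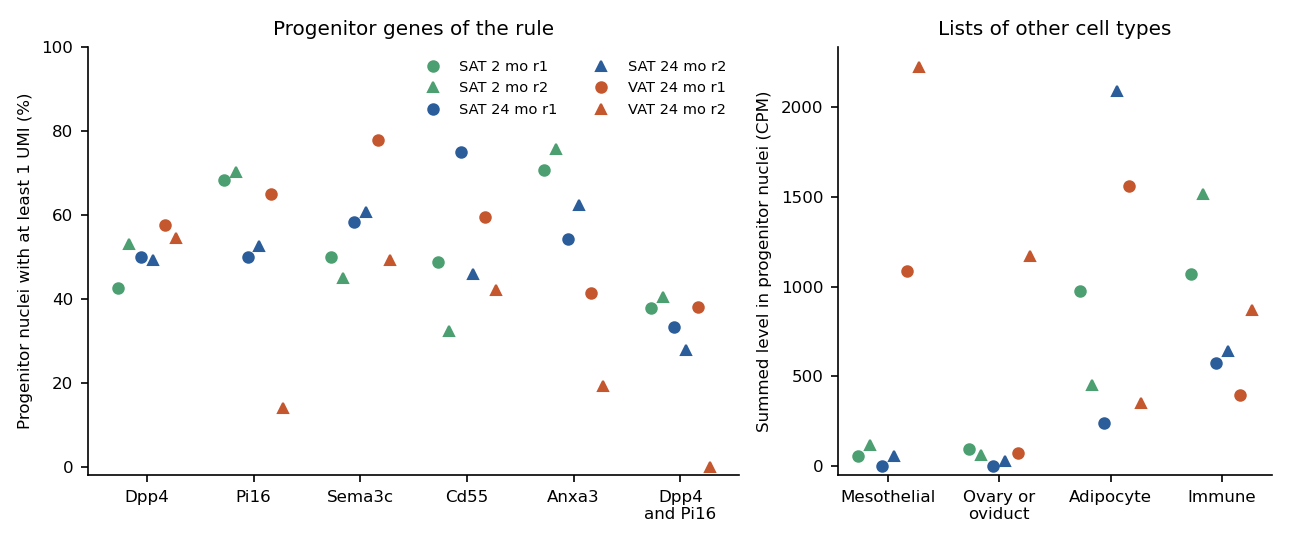
Left, the percentage of progenitor nuclei of each library with at least 1 UMI of each progenitor gene of the rule and of Dpp4 and Pi16 together; right, the summed level in CPM of 4 lists of other cell types in the same nuclei, 1 point per library with colour for the group and shape for the replicate. VAT replicate 2 is at 14.0% for Pi16 and 0 for the pair, and highest for the mesothelial and the ovary or oviduct lists.

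Just inside the threshold, 127 progenitor nuclei held exactly 2 progenitor UMIs, and just outside it 269 other fibroblast nuclei held 1. A list of 28 further progenitor genes that the rule did not use, such as Cd248, Fn1, Mfap5 and Clec3b, summed to 3309 to 7956 CPM in the former and to 1788 to 4340 CPM in the latter, and was higher just inside the threshold in each of the 6 libraries.

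Against other fibroblast nuclei, genes outside the rule set the progenitor nuclei apart as well, though this too is a description because the rule split the nuclei. Of 6285 genes with at least 50 UMIs in progenitor nuclei over all libraries, 252 (4.01%) were higher in progenitor nuclei in all 6 libraries and 231 (3.68%) were lower in all 6. Genes seen mainly in other fibroblast nuclei could miss this limit. The highest median ratio was that of Smpd3, neutral sphingomyelinase 2, at 204, 212, 238, 347, 404 and 81.2 CPM in progenitor nuclei (in the order SAT 2 months, SAT 24 months and VAT, replicates 1 and 2 of each) and 7.72, 4.93, 0, 12, 59.6 and 14.1 CPM in the others. The long noncoding Gm12381 followed with a median log2 ratio of 3.63 over libraries, Sema3e, another secreted semaphorin, with 3.17, and Myoc, myocilin, with 2.78. These ratios were taken on CPM + 10. Without VAT replicate 2, Gm12381 came first with a median of 4.5, ahead of Smpd3 with 3.89, Sema3e with 3.4 and Pcolce2 with 3.15.

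Opcml, a surface adhesion molecule, was at 414 to 1953 CPM in progenitor nuclei and at 136 to 329.9 CPM in other fibroblast nuclei. Pcolce2, which aids the trimming of procollagen, was at 457 to 596 CPM in 5 libraries, against 32.9 to 189 CPM in other fibroblast nuclei, but at 48.7 CPM in progenitor nuclei of VAT replicate 2. Sfrp4, a secreted Wnt inhibitor, was at 95.3 to 617 CPM in SAT progenitor nuclei and at 3.86 to 39.5 CPM in other SAT fibroblast nuclei, while in VAT replicate 2 it was lower in progenitor nuclei (81.2 against 131 CPM). Fndc1, Tmem158, Dact2, Efhd1 and Rcan2 completed the 12 leading genes, with median log2 ratios of 2.49 to 2.60.

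Of the 25 genes of the further progenitor list with enough UMIs, 15 were higher in progenitor nuclei in all 6 libraries and 22 in at least 5, beside 4.01% and 14.1% of all genes. Of the 16 measured genes of the preadipocyte list 4 were lower in all 6 libraries and 13 in at least 5, beside 3.68% and 16.7% of all genes. Pparg, the nuclear receptor that drives adipocyte formation, was at 4.61 to 258 CPM in progenitor nuclei and 74.0 to 704 CPM in other fibroblast nuclei, lower in 5 of 6 libraries. Adam12, Prr16 and Nrp1, a coreceptor of semaphorins and VEGF, were lower in all 6 libraries, and Fgf10, a growth factor of preadipocytes, and Vcam1, a leukocyte adhesion molecule, in 5 of 6. The TGFβ receptor gene Tgfbr2 (211 to 718 against 159.7 to 261 CPM) and the matrix gene Col14a1 (146 to 1017 against 33.0 to 223 CPM) were higher in progenitor nuclei in all 6 libraries.

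**Figure D2:**
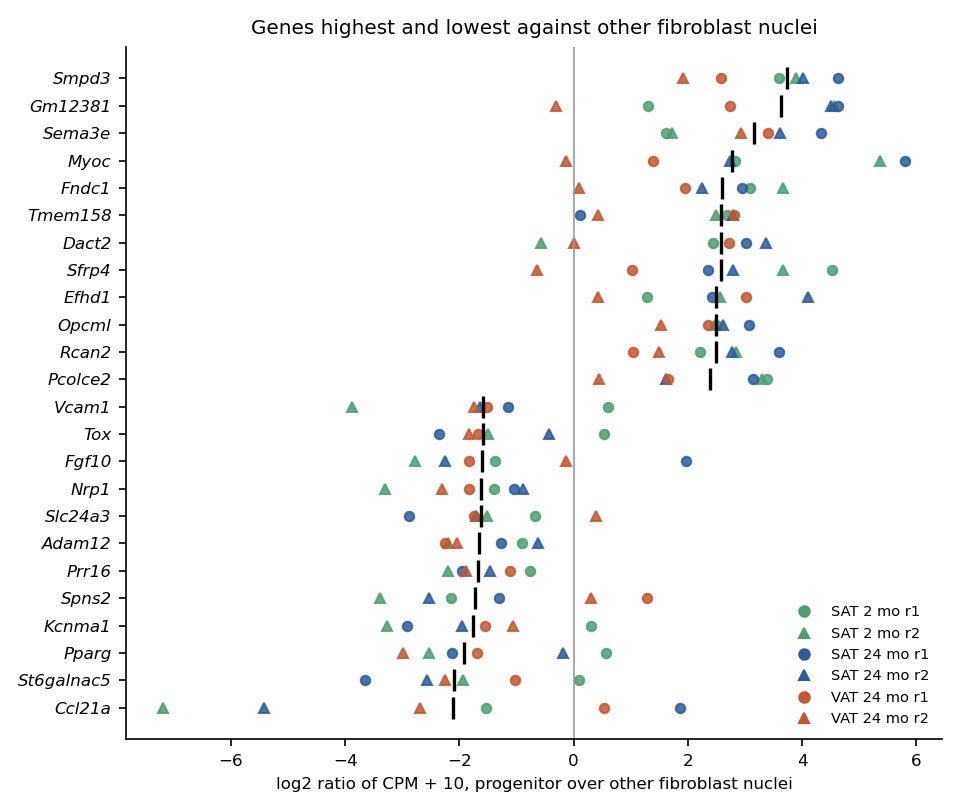
The 12 genes outside the rule with the highest and the 12 with the lowest median ratio between progenitor and other fibroblast nuclei; the x axis is the log2 ratio of CPM + 10 within a library, points are libraries and black ticks the median of 6. Smpd3 leads with a median of 3.74 over all libraries, and points of VAT replicate 2 lie nearest to 0 for most of the leading genes.

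The first comparison asks whether the share of progenitor nuclei differs with age or depot. In SAT they made up 1.78% (exact 95% binomial interval 1.42% to 2.21%) and 1.92% (1.58% to 2.31%) of nuclei in young mice, and 0.964% (interval 0.619% to 1.43%) and 1.30% (interval 0.992% to 1.66%) in old ones. The mean over libraries was 1.85% ± 0.0970 (SD, n = 2) and 1.13% ± 0.234, a difference of -0.724 percentage points. With no UMI of the exclusion genes allowed, the shares were 1.48% and 1.16% against 0.884% and 1.04%, a difference of -0.358 points, and Ptprc, the leukocyte gene of that set, was found in 8.54% and 24.3% of young and 4.17% and 1.64% of old SAT progenitor nuclei. Both older libraries lay under both young ones, yet with 2 libraries a group the exact two-sided permutation p was 0.33, the lowest this design can give (0.67 adjusted over the 4 comparisons of shares). Intervals cover counting error only, and fewer cells of a kind, fewer nuclei recovered and less RNA per nucleus cannot be told apart here.

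Among fibroblast nuclei, progenitor nuclei were at 38.1% and 50% at 2 months and at 30.8% and 21.8% at 24 months. The means of 44.1% ± 8.39 and 26.3% ± 6.35 (SD, n = 2) differed by -17.8 points, again without overlap (exact permutation p = 0.33). With each nucleus thinned to 1000 UMIs, the shares of all nuclei were 1.35% and 1.75% at 2 months and 0.723% and 1.06% at 24 months.

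VAT gave shares that no mean describes. Progenitor nuclei were 10.1% (9.25% to 11.1%) of nuclei in replicate 1 and 1.12% (0.853% to 1.45%) in replicate 2, which lies between the SAT libraries of the same age. The difference from SAT at 24 months was 4.5 points over both libraries (exact permutation p = 0.67), 9.0 points with replicate 2 of VAT left out and -0.00536 points with replicate 1 left out. Of fibroblast nuclei, they were 58.6% in VAT replicate 1 and 30.2% in replicate 2, against 30.8% and 21.8% in SAT (18.1 points, exact permutation p = 0.67, and 32.3 points without VAT replicate 2). Without nuclei that held at least 2 mesothelial, ovary or oviduct UMIs they were 53.1% and 15.1% in VAT, against 32.0% and 22.2% in SAT, so that VAT replicate 2 was under both SAT libraries and the difference was 6.97 points. With all deposited barcodes it was 9.34 points. The same removal gave shares of all nuclei of 8.16% and 0.882% in VAT, and 1.09% and 1.42% in SAT at 24 months.

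**Figure D3:**
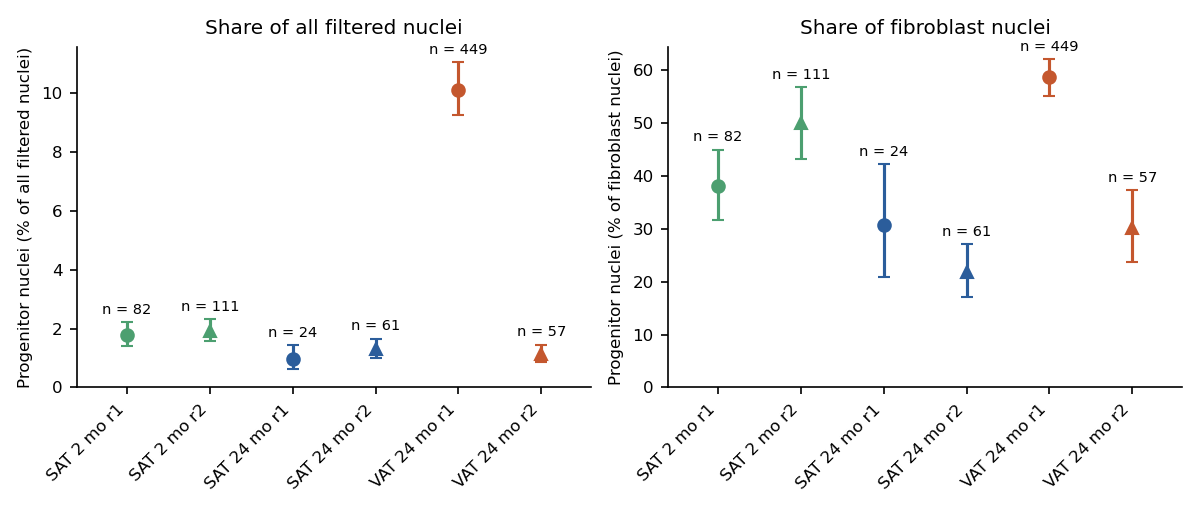
Progenitor nuclei as a percentage of all filtered nuclei (left) and of fibroblast nuclei (right) in each library, with exact 95% binomial intervals and the number of progenitor nuclei. The 2 old SAT libraries lie below the 2 young ones in both panels, and VAT replicate 1, at 10.1% of nuclei and 58.6% of fibroblast nuclei, lies above all others.

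The second comparison asks which genes differ within progenitor nuclei of SAT between 24 and 2 months. UMIs were summed per library, and edgeR's quasi-likelihood test with Benjamini-Hochberg adjustment called 0 of 4679 genes (0% called). At an unadjusted p under 0.05 stood 472 genes (10.1%), and DESeq2 called 3, namely Sparcl1 and Bgn, higher, and Plac8, lower. In 372 genes (7.95%) both older libraries were higher than both young ones and the fitted fold change was over 2-fold, and in 596 (12.7%) they were lower in the same sense, which is what over 2-fold without overlap means below. The genes below were therefore named by the smallest p and are not called. The mitochondrial share and the immune list differed between the ages too, as given above, and their part in these values was not tested.

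Among the 8 genes named as higher at 24 months, Sparcl1, a matricellular protein, was at 132 and 46.1 CPM at 2 months and 619 and 953 CPM at 24 months (log2 fold change 3.14, SE 0.65, edgeR adjusted p = 0.338). The proteoglycan biglycan (Bgn) was at 55.1 and 115 against 595 and 579 CPM (log2 fold change 2.69). Igfbp7, a secreted protein that binds insulin-like growth factors and is often counted among senescence-associated secreted factors, was at 182 and 179.7 against 595 and 864 CPM (1.98 on the log2 scale). The old libraries were above the young ones without overlap for all 3, and the young libraries lay close together for Igfbp7 only.

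The claudin gene Cldn15 had 0 UMIs in both young libraries and 4 and 11 in the old ones, at least 12.9-fold higher against a floor of 3 UMIs over the young group. Sema3e, one of the genes that also set progenitor nuclei apart, was at 44.1 and 23.0 against 191 and 187 CPM, the phosphodiesterase Pde3a at 132 and 101 against 452 and 534 CPM, and the sodium-activated potassium channel gene Kcnt2 at 44.1 and 55.3 against 214 and 285 CPM. Thsd7a was at 176 and 119.8 against 548 and 605 CPM. All 4 were without overlap and not called.

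Lower at 24 months was first Il31ra, a receptor chain for the itch-associated cytokine interleukin 31. It had 292 and 442 CPM at 2 months and 23.8 and 8.90 CPM, 1 UMI each, at 24 months (log2 fold change -4.79, SE 0.74, edgeR adjusted p = 0.224). The ratio of pooled counts was 28.9, with an exact counting interval of 7.85 to 240.0. In other fibroblast nuclei of SAT Il31ra was at 27.0 and 83.8 CPM at 2 months and at 0 and 0 at 24 months, and in non-fibroblast nuclei at no more than 7.80 CPM. Without SAT 2 months replicate 1 or without replicate 2 its adjusted p was 0.00216 and 0.0127, and without a 24-month library it was 0.170 or 0.506.

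Interleukin 18 (Il18) was at 138 and 157 CPM at 2 months and at 23.8 and 8.90 CPM, 1 UMI each, at 24 months. The collagen-modifying lysyl hydroxylase Plod2 was at 314 and 295 against 23.8 and 53.4 CPM, the actin-bundling Actn1 at 331 and 424 against 23.8 and 80.1 CPM, and the ganglioside synthase St3gal5 at 93.7 and 111 CPM against 0 UMIs in both older libraries. Each older library lay below each young one for all 4.

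The other 3 of the 8 lower genes are known from lymphocytes. Irf4, a transcription factor of B and T cells that fat cells also use, was at 325 and 488 CPM in progenitor nuclei at 2 months and 47.6 and 17.8 CPM at 24 months, and at 113 and 135 against 23.2 and 18.3 CPM in non-fibroblast nuclei. The immunoglobulin gene Ighd was at 215 and 244 CPM against 0 and 17.8 CPM, and the leukocyte actin regulator Coro1a at 99.2 and 267 against 0 and 8.90 CPM. In non-fibroblast nuclei Ighd was at 493 and 425 against 38.4 and 44.1 CPM and Coro1a at 627 and 706 against 217 and 73.5 CPM, so both were higher outside the progenitor nuclei and moved there with the immune list. The part of immune RNA in these values was not tested.

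**Figure D4:**
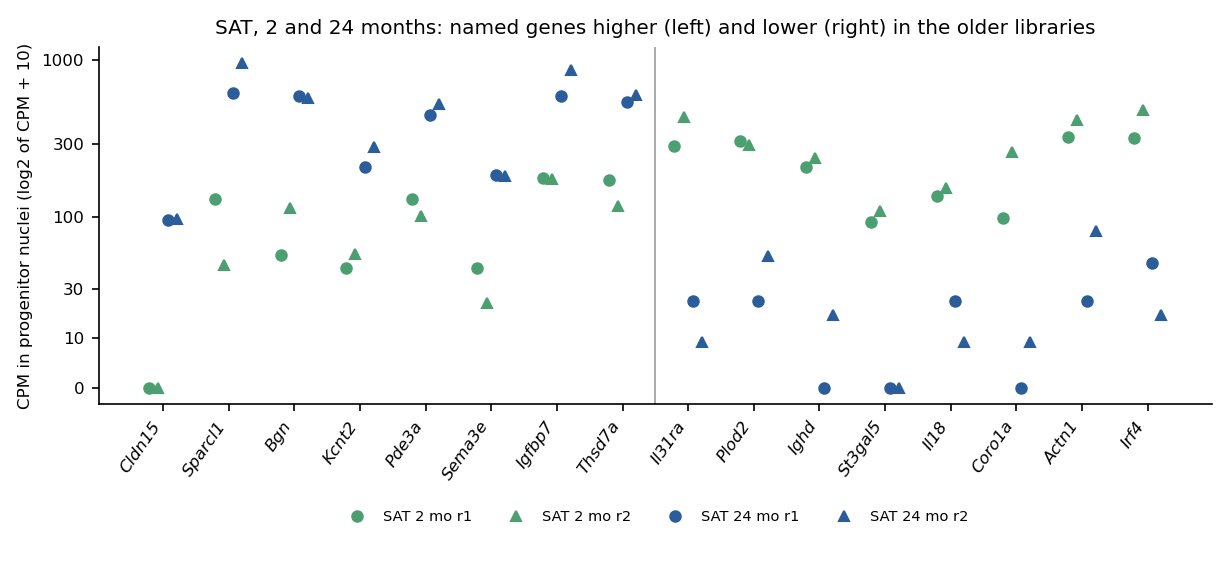
CPM in progenitor nuclei of the 4 SAT libraries for the 8 genes with the smallest p in each direction, on a log2 axis of CPM + 10. Old and young points do not overlap for any of the 16 genes, which the choice of genes required, and none passed the adjusted threshold.

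Progenitor genes outside the rule were more often higher than lower with age, with 0 called. Of 24 tested genes of the further progenitor list, 8 were higher and 2 lower by over 2-fold without overlap, beside 7.95% and 12.7% of all genes, with a median log2 fold change of 0.56 against -0.04 over all genes. The list summed to 8474 and 12967 CPM at 2 months and to 11883 and 13202 CPM at 24 months, so that its sum overlapped. Heg1, a transmembrane receptor, was at 298 and 484 CPM at 2 months and 1119 and 899 CPM at 24 months. Fn1, fibronectin, was at 1515 and 2087 against 953 and 1478 CPM, and Igfbp6 and Opcml overlapped between the ages. Dpp4 was at 589.5 and 613 against 714 and 605 CPM and Pi16 at 2799 and 3248 against 3667 and 1745 CPM, both overlapping.

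Ly6c1 and Tmem158, chosen after their values were seen, were the 2 lower genes of that list. Ly6c1, a surface protein of mouse stromal and immune cells, was at 446 and 1249 CPM at 2 months and 95.3 and 312 CPM at 24 months. In other fibroblast nuclei it was at 38.6 and 54.2 against 63.5 and 168 CPM, and the difference of the 2 changes had the smallest p of all genes, at a log2 value of -3.37 with SE 0.64 (edgeR adjusted p = 0.155). It was not called.

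Genes of committed preadipocytes included several with higher values in old progenitor nuclei. Of 16 tested genes, 8 were higher and 0 lower by over 2-fold without overlap, beside 7.95% and 12.7% of all genes, with a median log2 fold change of 1.28 against -0.04 over all genes. An unadjusted p under 0.05 was seen for 9, beside 10.1% of all genes. The lipid-binding Fabp4 was at 634 and 410.1 CPM at 2 months and 667 and 5519 CPM at 24 months, lipoprotein lipase (Lpl) at 606 and 286 against 595 and 2617 CPM, so that the mean differences came from replicate 2 of the old libraries. The basement membrane collagen Col4a1 was at 589.5 and 442 against 929 and 1834 CPM and apolipoprotein E (Apoe) at 342 and 161 against 1214 and 463 CPM, both without overlap. The list summed to 4926 and 2498 CPM at 2 months and 6358 and 14938 CPM at 24 months. In the same 4 libraries it summed to 4333, 2587, 6547 and 21644 CPM in non-fibroblast nuclei, and adipocyte genes in progenitor nuclei were highest in the same old library. Of 4 tested genes of the mural list 3 were higher and 1 lower with age by over 2-fold without overlap, beside 7.95% and 12.7% of all genes. The part of adipocyte or mural RNA in these values was not tested. None of the adipogenic regulators Ebf1, Ebf2, Zfp521 and Tcf7l1 was called. Of 10 tested regulators 2 were higher and 0 lower by over 2-fold without overlap, beside 7.95% and 12.7% of all genes. The higher ones included Zfp521, a zinc finger factor that holds back adipocyte formation, at 226 and 207 against 976 and 285 CPM. Ebf1 was higher by less, at 1394 and 1548 against 3239 and 2644 CPM.

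Of the 5 fibrillar collagens outside the rule none was called with age. Col1a1 was at 4154 and 4659 CPM at 2 months and 1977 and 1941 CPM at 24 months (log2 fold change -1.23, SE 0.63, edgeR adjusted p = 0.566). Col3a1 overlapped, at 3895 and 5691 against 2762 and 4246 CPM. Of the 5 genes 1 was lower by over 2-fold without overlap, beside 12.7% of all genes, and the sum was 10259 and 13155 against 7001 and 8875 CPM. Of 17 tested matrix glycoproteins 1 was higher (Bgn) and 2 lower by over 2-fold without overlap, beside 7.95% and 12.7% of all genes, with Sparc, a collagen-binding protein, at 1455 and 1935 against 1691 and 2502 CPM. Thbs2, thrombospondin 2, which inhibits vessel growth, was at 568 and 1972 against 333 and 294 CPM.

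Interferon response and MHC class I genes had a median log2 fold change of -1.51 over 11 tested genes, against -0.04 over all genes, and 0 were called. Of these 7 were lower by over 2-fold without overlap and 0 higher, beside 12.7% and 7.95% of all genes, but the young libraries were far apart. The virus-restriction factor Bst2 was at 275 and 1709.5 CPM at 2 months and 167 and 169 CPM at 24 months, and the class I heavy chain H2-K1 at 2094 and 3783 against 1000.2 and 1175 CPM. H2-D1 was at 799 and 1516 against 333 and 899 CPM and B2m, the class I light chain, at 1388 and 3073 against 1048 and 1860.5 CPM, both overlapping. Without SAT 2 months replicate 1, Bst2, Isg15, Irf7 and Stat2 had adjusted p values under 0.05 (0.0112 for Bst2), whereas without replicate 2 Bst2 had a log2 fold change of -0.72 and an adjusted p of 0.98. For Bst2, SAT 2 months replicate 2 thus set the size of the difference. In non-fibroblast nuclei Bst2 was at 104 and 178 CPM at 2 months and 86.0 and 84.0 CPM at 24 months, and the whole list summed to 8069.5 and 11238 CPM against 5739 and 5616 CPM there, again without overlap.

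Of 13 tested genes of signals to immune cells, 3 were higher and 3 lower by over 2-fold without overlap, beside 7.95% and 12.7% of all genes. Complement C3 was at 1079.9 and 1599 against 1405 and 1487 CPM. C4b was at 639 and 1498 against 476 and 356 CPM, the B cell chemokine Cxcl13 at 1124 and 175 against 191 and 8.90 CPM, and Csf1, a macrophage growth factor, at 429.8 and 912 against 405 and 383 CPM, none of them called. C4b was among the 3 lower genes. Interleukin 33 (Il33), an alarmin of stromal cells, chosen after its values were seen, was another and was at 165 and 92.2 CPM at 2 months and at 23.8 and 8.90 CPM, 1 UMI each, at 24 months.

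Of 19 tested growth factor genes 2 were higher and 1 lower by over 2-fold without overlap, beside 7.95% and 12.7% of all genes. Vegfd, a ligand of lymphatic vessel growth, chosen after its values were seen, was the lower one, at 391 and 488 against 143 and 89.0 CPM. The EGF receptor gene (Egfr) was at 975 and 1461 against 809.7 and 899 CPM and the growth hormone receptor gene (Ghr) at 1157 and 714 against 691 and 659 CPM. Of the TGFβ and BMP ligands, receptors, inhibitors and targets, 2 of 21 tested genes were higher and 0 lower by over 2-fold without overlap, beside 7.95% and 12.7% of all genes. These 2 were the ligand Bmp6, at 11 and 27.6 against 95.3 and 89.0 CPM, and the activin receptor Acvr2a, at 127 and 27.6 against 286 and 409 CPM. Of the 17 genes that the study names for fibro-adipogenic progenitors 1 was higher and 1 lower by over 2-fold without overlap, beside 7.95% and 12.7% of all genes. This list is no independent evidence since the study used these samples. The lower one, Gas6, a ligand of TAM receptors, chosen after its values were seen, was at 347 and 1009 CPM against 95.3 and 80.1 CPM (log2 fold change -3.05, edgeR adjusted p = 0.338).

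For senescence, Cdkn2a had 11 and 0 CPM at 2 months and 0 UMIs at 24 months, where 1 UMI is worth 23.8 and 8.90 CPM, so its level was not measurable at this depth. Of the 5 tested genes of the list 1 was higher (Igfbp7) and 1 lower by over 2-fold without overlap, beside 7.95% and 12.7% of all genes. The lower one was Mdm2, which holds p53 down, at 165 and 129 against 23.8 and 35.6 CPM. No tested gene was on the list of proliferation genes, which summed to 44.1 to 161 CPM over all libraries.

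The third comparison asks which genes differ in progenitor nuclei between VAT and SAT at 24 months. The same edgeR fit called 0 of 4679 genes (0% called), with 361 (7.72%) at an unadjusted p under 0.05. Without overlap and with a fitted change of over 2-fold, 487 genes (10.4%) were higher and 324 (6.92%) lower in VAT. The smallest adjusted p was 0.0542, and several settings crossed the threshold: DESeq2 called 26 genes (19 higher and 7 lower in VAT), edgeR without VAT replicate 2 called 42 (27 higher and 15 lower, 37 of them without overlap), and without VAT replicate 1 it called 145. With a library left out, the lone VAT library is assumed to vary like the other groups. Without VAT replicate 2, 13.9% of 6929 tested genes were higher and 7.38% lower in VAT by over 2-fold without overlap. These shares, not those of the main fit, belong to the counts given below for VAT replicate 1 alone. DESeq2 and the fit without VAT replicate 2 had 20 genes in common, which is 76.9% of the former and 47.6% of the latter.

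The genes named by their p included 2 known for depot identity. Tbx15 (chromosome 3, 99147697 to 99294185, plus strand, GRCm39), a T-box factor known from subcutaneous fat, was at 143 and 169 CPM in SAT and at 8.90 CPM and 0 UMIs in VAT (log2 fold change -4.34, SE 0.70, edgeR adjusted p = 0.0565). Its adjusted p was 0.00186 without VAT replicate 2, 0.00417 without VAT replicate 1 and 0.00564 in DESeq2, but 0.0853 and 0.428 without SAT 24 months replicate 1 and 2. Wt1 (chromosome 2, 104956625 to 105003961, plus strand), a factor of visceral fat progenitors and of mesothelium, had 0 UMIs in both SAT libraries and 297 and 487 CPM in VAT, at least 16.6-fold higher (edgeR adjusted p = 0.0542). In non-fibroblast nuclei of VAT, Wt1 was at 27.6 and 511 CPM, so in replicate 2 it was no lower outside the progenitor nuclei. The adjusted p of Wt1 was 1.8e-05 without VAT replicate 2 and 2.8e-05 without VAT replicate 1, but 0.0853 and 0.428 without SAT 24 months replicate 1 and 2, and 0.466 without nuclei that held at least 2 mesothelial, ovary or oviduct UMIs. The 2 SAT libraries of young mice also had 0 Wt1 UMIs, and Tbx15 was at 319.6 and 382 CPM in them. Neither Tbx15 nor Wt1 overlapped between depots. Of the 2 tested genes of the subcutaneous list, Tbx15 was the 1 that was lower in VAT by over 2-fold without overlap, beside 6.92% of all genes.

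Of the 12 genes of the visceral list 4 were tested, and all 4 were higher in VAT by over 2-fold without overlap, beside 10.4% of all genes. With VAT replicate 1 alone it was 5 of 6, beside 13.9% of all genes. The 4 were Wt1, Upk1b, the endodermal and mesothelial factor Gata6 (47.6 and 62.3 against 122 and 308 CPM) and Hoxc4 (71.4 and 62.3 against 165 and 122 CPM). Upk1b also belongs to mesothelium. Wt1 and Upk1b had 0 UMIs in all 4 SAT libraries, so they passed the count filter through VAT alone and their direction was fixed by it. The count of the list is therefore a description. Tcf21, a visceral mesenchymal factor that was too low to be tested, had 0 UMIs in all 4 SAT libraries and 73.7 and 48.7 CPM in VAT. Hoxa9 overlapped (47.6 and 142 against 94.0 and 114 CPM), and Hoxa5, Hoxc6, Hoxc8, Hoxc9 and Hoxc10 had 0 UMIs in progenitor nuclei of every library.

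Mesothelial genes were among those most different between the depots. Gpm6a, a membrane glycoprotein of neurons and mesothelium, had 0 UMIs in SAT and 308 and 479 CPM in VAT (at least 17-fold higher, edgeR adjusted p = 0.0542, with 1.5e-05 without VAT replicate 2 but 0.0853 and 0.428 without SAT 24 months replicate 1 and 2), and the mesothelial mucin gene Muc16 had 0 UMIs in SAT and 214 and 430.1 CPM in VAT (at least 12.5-fold). Pkhd1l1 had 0 UMIs in SAT and 217 and 276 CPM in VAT (at least 11.6-fold). In non-fibroblast nuclei of VAT, Gpm6a was at 49.2 and 329 CPM, Muc16 at 30.9 and 203 CPM and Pkhd1l1 at 28.2 and 315 CPM. Of the 10 genes of the mesothelial list 6 were tested, and all 6 were higher in VAT by over 2-fold without overlap, also with VAT replicate 1 alone. The list summed to 0 and 53.4 CPM in SAT at 24 months, so these genes passed the count filter through VAT. Their direction was thus fixed by the filter, and the count is a description, to be set against no share of all genes. When the 174 progenitor nuclei with at least 2 mesothelial, ovary or oviduct UMIs were left out, 610 remained, 328 and 14 of them in VAT. In these Gpm6a was at 5.45 CPM (3 UMIs) and 0, and Muc16 at 9.08 CPM (5 UMIs) and 0, a drop that the choice of nuclei in part imposes, since both genes are on the list. Wt1, which is not on the list, was at 158 CPM (87 UMIs) and 124 CPM (3 UMIs), and Tbx15 at 5.45 CPM (3 UMIs) and 0.

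Of the other genes named as higher in VAT, the synaptic adhesion gene Nlgn1, neuroligin 1, had 0 UMIs in SAT at 24 months and 330.4 and 828 CPM in VAT (at least 20.5-fold higher, edgeR adjusted p = 0.0542), and 71.6 and 73.7 CPM in young SAT. The adjusted p of Nlgn1 was 9.6e-06 without VAT replicate 2, but 0.0853 and 0.428 without SAT 24 months replicate 1 and 2, and 0.167 without the 174 nuclei. Il1rapl1, a synaptic adhesion receptor that the study lists for fibro-adipogenic progenitors, was at 23.8 and 35.6 against 477 and 1136 CPM (log2 fold change 4.65, SE 0.70). The transcription factor Sox6 was at 47.6 and 26.7 against 344 and 812 CPM, and triadin (Trdn), a calcium-release protein of muscle, at 0 and 8.90 against 219.9 and 203 CPM. In non-fibroblast nuclei of VAT, Sox6 was at 580 and 641 CPM, Nlgn1 at 40.5 and 120.5 CPM, Il1rapl1 at 53.3 and 179 CPM and Trdn at 47.2 and 56.8 CPM. Without the 174 nuclei, the VAT levels were 129 and 866 CPM for Nlgn1, 69.0 and 247 CPM for Il1rapl1 and 92.6 and 124 CPM for Sox6. VAT replicate 2 was the higher VAT library for Nlgn1, Il1rapl1, Sox6, Wt1, Gpm6a and Muc16.

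Within VAT replicate 1 these genes were spread unevenly between nuclei with and without a Pi16 UMI. This split was chosen after the data were seen and is made on a gene of the rule, so it is a description and supports nothing else. In VAT replicate 1, Wt1 was at 505 CPM, Gpm6a at 744 CPM, Il1rapl1 at 1151 CPM and Nlgn1 at 683 CPM in the 157 nuclei without Pi16, and at 186, 72.3, 113 and 141 CPM in the 292 nuclei with it. The mesothelial list summed to 2371 CPM without and 393 CPM with Pi16. In VAT replicate 2 the list summed to 2459 CPM in 49 nuclei without and 298 CPM in 8 nuclei with Pi16, but Nlgn1 was at 847 and 670.2 CPM there. In SAT the mesothelial list summed to 0 to 144 CPM in both kinds of nuclei, and Nlgn1 was at 0 to 176 CPM. Cd248 was at 94.4 CPM without and 673 CPM with Pi16 in VAT replicate 1, and it was higher with Pi16 in all 6 libraries, by least in SAT 24 months replicate 1, at 399.7 and 412 CPM.

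Among the genes named as lower in VAT, Fap, fibroblast activation protein, a protease of the same family as DPP4, was at 833 and 588 CPM in SAT and 142 and 138 CPM in VAT (log2 fold change -2.26, SE 0.49, edgeR adjusted p = 0.146). The Wnt inhibitor Dkk2 was at 167 and 53.4 CPM in SAT and had 0 UMIs in VAT, at least 25.6-fold lower, and the retinoic acid hydroxylase Cyp26b1 was at 143 and 89.0 against 2.54 CPM and 0. DESeq2 adjusted p values were 0.0282 for Fap, 0.016 for Dkk2 and 0.0196 for Cyp26b1, while the main edgeR fit called none of them. Without VAT replicate 2 the adjusted p was 0.000701 for Dkk2 and 0.0170 for Cyp26b1, but 0.223 for Fap, and without the 174 nuclei the log2 value of Fap was -1.46 (adjusted p = 0.999). The collagen-degrading cathepsin K gene (Ctsk) was at 262 and 223 against 47.0 and 8.12 CPM and the transcription factor Zfhx4 at 548 and 481 against 114 and 129.9 CPM. Notch3 (286 and 107 against 14.0 and 8.12 CPM) and the channel subunit Abcc9 (119 and 89.0 against 5.08 CPM and 0) belong to mural cells, whose list summed to 595 and 409 CPM in SAT and 80.1 and 8.12 CPM in VAT. Its part in these values was not tested.

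**Figure D5:**
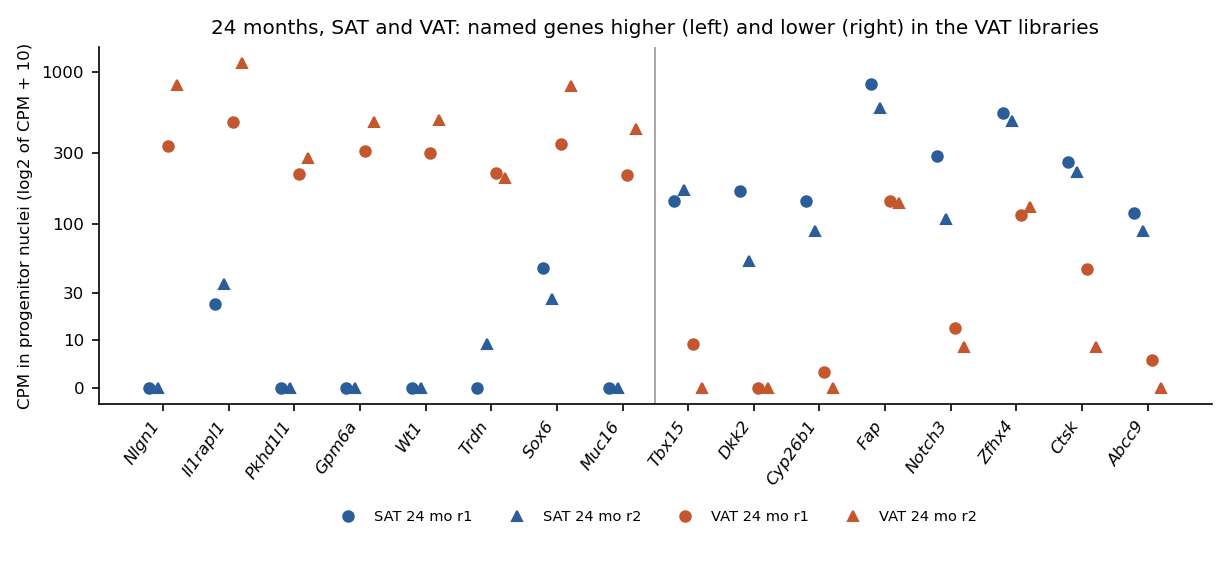
CPM in progenitor nuclei of the 4 libraries at 24 months for the 8 genes with the smallest p in each direction, on a log2 axis of CPM + 10. Nlgn1, Pkhd1l1, Gpm6a, Wt1 and Muc16 had 0 UMIs in both SAT libraries and Dkk2 in both VAT libraries, and none of the 16 genes was called.

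Of the 5 fibrillar collagens 0 were called, and all 5 were lower in VAT by over 2-fold without overlap, beside 6.92% of all genes, or 4 with VAT replicate 1 alone. They summed to 7001 and 8875 CPM in SAT and 3019.7 and 1639.5 CPM in VAT. Col1a1 was at 1977 and 1941 against 552 and 170.4 CPM (log2 fold change -2.35, standard error 0.65, edgeR adjusted p = 0.33), and DESeq2 gave it an adjusted p of 0.0282. Col3a1 was at 2762 and 4246 against 1368 and 949.6 CPM. In the 610 nuclei with fewer than 2 mesothelial, ovary or oviduct UMIs, Col1a1 was at 657 and 371 CPM in VAT (log2 fold change -1.85, edgeR adjusted p = 0.999). Of the other 7 tested collagens 3 were lower and 1 higher by over 2-fold without overlap, beside 6.92% and 10.4% of all genes, or 3 and 2 with VAT replicate 1 alone. Col6a3 was at 1286 and 1104 against 342 and 227 CPM. The other fibroblast nuclei had Col1a1 at 572 and 1609 CPM in old SAT, against 323 and 329 CPM in VAT.

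Of 16 tested preadipocyte genes 0 were called, and 8 were lower and 0 higher in VAT by over 2-fold without overlap, beside 6.92% and 10.4% of all genes, with a median log2 fold change of -1.28. With VAT replicate 1 alone 8 were lower and 1 higher, with a median of -1.08, beside 7.38% and 13.9% of all genes in that fit. The list summed to 6547 and 21644 CPM in non-fibroblast nuclei of SAT and 14571 and 1867 CPM in those of VAT, and the mural list was lower in VAT progenitor nuclei too, as given above. Their part in these values was not tested. Lpl was at 595 and 2617 against 473 and 187 CPM, Col4a1 at 929 and 1834 against 405 and 365 CPM and Col4a2 at 667 and 944 against 207 and 203 CPM. Further progenitor genes were lower by over 2-fold without overlap in 7 of 24 and higher in 0, but lower in 1 and higher in 2 of 25 with VAT replicate 1 alone. Procr, the protein C receptor, chosen after its values were seen, was at 309.6 and 214 CPM in SAT and at 62.3 CPM and 0 UMIs in VAT. Others were low in VAT replicate 2 alone: Fn1 was at 953 and 1478 CPM in SAT and 1206 and 89.3 CPM in VAT, Cd248 at 405 and 534 against 470.2 and 73.0 CPM and Clec3b at 762 and 1086 against 905 and 114 CPM. In VAT replicate 1 these 3 lay within the SAT range, and the list summed to 13421 CPM there against 11883 and 13202 CPM in SAT and 2832 CPM in VAT replicate 2.

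Of 6 tested genes reported for adipogenesis-regulating stromal cells, 2 were higher and 1 lower in VAT by over 2-fold without overlap, beside 10.4% and 6.92% of all genes, and 2 and 0 with VAT replicate 1 alone. Fmo2, a flavin monooxygenase, was at 0 and 71.2 CPM in SAT and 491 and 471 CPM in VAT (log2 fold change 3.35, standard error 0.70, edgeR adjusted p = 0.138, with 0.0013 without VAT replicate 2 but 0.999 without the 174 nuclei), and matrix Gla protein (Mgp) at 191 and 89.0 against 385 and 560.0 CPM. Igfbp3, a binding protein of insulin-like growth factors, was the lower one, at 262 and 178 against 118 and 40.6 CPM. Complement C3 was at 1405 and 1487 against 2406 and 3474 CPM, higher in both VAT libraries and not called.

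Of 15 tested Wnt ligands, receptors, inhibitors and targets 2 were higher and 2 lower in VAT by over 2-fold without overlap, and of 21 tested TGFβ and BMP genes 1 was higher and 2 lower, beside 10.4% and 6.92% of all genes. With VAT replicate 1 alone, 2 of 4 Wnt ligands were higher and 1 lower, beside 13.9% and 7.38% of all genes. The Wnt counts were 1 and 0 of 8 receptors, 1 and 1 of 3 inhibitors and 1 and 0 of 2 targets. For TGFβ and BMP they were 3 and 0 of 6 ligands, 1 and 0 of 9 receptors, 0 and 2 of 10 inhibitors and 0 and 1 of 6 targets. The Wnt agonist Rspo1, which the mesothelial list also holds, had 0 UMIs in SAT and 121 and 341 CPM in VAT, and Bmp4, a BMP ligand, was at 23.8 and 26.7 against 90.2 and 203 CPM. Of 19 growth factor genes 0 were called, and 5 were higher and 4 lower in VAT by over 2-fold without overlap, beside 10.4% and 6.92% of all genes, or 6 and 3 with VAT replicate 1 alone, with Pdgfd, a PDGF ligand, at 238 and 160.2 against 507 and 479 CPM and Egfr at 809.7 and 899 against 375 and 357 CPM. Vegfd was at 143 and 89.0 against 313 and 341 CPM and Gas6 at 95.3 and 80.1 against 334 and 982 CPM, and young SAT had 391 and 488 CPM of Vegfd and 347 and 1009 CPM of Gas6. Of the 11 tested interferon and class I genes 1 was higher and 0 lower without overlap, or 3 and 0 of 17 with VAT replicate 1 alone.

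Whether the changes were particular to progenitor nuclei was tested with the difference of changes between progenitor and other fibroblast nuclei of the same libraries. edgeR called 0 of 7426 genes (0% called) for age and 0 for depot, with 381 and 285 genes at an unadjusted p under 0.05. DESeq2 was not run on this model. No gene can thus be called particular to the progenitor nuclei in either comparison. Library 1 of the old SAT group held 24 progenitor nuclei, and its depth limits every such difference.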

How the data were processed

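The 6 libraries of single-nucleus RNA (Singleron GEXSCOPE kit, Illumina HiSeq X10, 150-base paired reads) fell into 3 groups of 2. The authors counted UMIs per gene and nucleus with Celescope (version not stated) on GRCm39 and deposited raw counts of 56980 genes, with no normalization. The labels' description names another droplet kit than the methods.

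Nuclei were chosen by the rule at the head of the report; the members and all 38 gene lists were chosen with earlier results of these data known. Counts were summed per library over progenitor nuclei and tested with edgeR 4.0.16 in R 4.3.3 (TMM scaling, filterByExpr, quasi-likelihood test, 3 groups in one fit, two-sided, Benjamini-Hochberg). Calls needed an adjusted p under 0.05. TMM factors were 0.963 to 1.04. DESeq2 1.42.0 was an alternative. The scripts were tested on simulated data. Intervals are exact (Clopper-Pearson, 95%), and a floor is 3 counts over the group. Against other fibroblast nuclei, no test was run. Gene positions are those of GENCODE M39.

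Since under 5 genes were called, those named were the 8 per direction with the smallest p whose libraries did not overlap and that had at least 10 UMIs in the higher group, plus up to 4 genes of the highest mean CPM per list, and 12 genes per direction against other fibroblast nuclei. Others are said to be chosen after their values were seen or illustrate a count.

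Same-numbered libraries were checked for pairing by the correlation of their deviations, which was 0.142, -0.157 and -0.133. With 2 libraries a group, 1 of them of 24 progenitor nuclei, these values cannot show whether the numbers pair mice. No pairing was used in the main tests. The study states 2 mice per age, so SAT and VAT at 24 months would share mice, and p-values measure the spread between these libraries. Scrublet (scanpy 1.11.5) marked 36 of the filtered nuclei (0.133%) as doublets, too few to have worked, so doublets were kept. Python 3.11.15 and matplotlib 3.10.9 were used. No sequence is shown, since the data bear on none. A result on 1 further gene is not reported here.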

Additional observations from a re-analysis of the deposited data

How the results depend on the processing

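Among shares, every setting with all libraries kept the direction of all 4 differences. The age difference among all nuclei was -0.358 points with 0 exclusion-gene UMIs allowed, against -0.724. Leaving out 1 library in turn gave -0.889 to -0.558 points for age and -0.00536 to 9.0 points for depot among all nuclei, the lowest value, which reverses the direction, without VAT replicate 1. Among fibroblast nuclei it gave -23.7 to -11.9 and 3.88 to 32.3 points. Genes called in progenitor nuclei numbered 3 for age and 26 for depot with DESeq2, 52 and 87 with no filter on low counts, 6 for depot with library-size scaling and 6 with DESeq2's size factors in edgeR, 10 for depot with only the 2 groups compared, and 7 for depot without the 5% highest doublet scores (a setting chosen after the data were seen); the cause was not tested. Leaving out 1 library gave 0 to 37 calls for age (37 without SAT 2 months replicate 1, 17 without replicate 2) and 0 to 145 for depot (145 without VAT replicate 1, 42 without replicate 2). The difference between progenitor and other fibroblast nuclei had 9 calls for age and 6 for depot with no filter, and 0 to 53 and 0 to 13 with 1 library left out (53 without SAT 2 months replicate 1, 13 without either SAT 2 months library), where a lone library is assumed to vary like the other groups. All other settings gave 0 calls. With the replicate number as a block 0 genes were called in both comparisons (406 and 314 at an unadjusted p under 0.05). For shares such a block must give the same mean differences, -0.724 and 4.5 points among all nuclei, so it tests nothing. Within replicate numbers 1 and 2 these differences were -0.821 and -0.626 points for age, and 9.16 and -0.171 points for depot. The 24 nuclei of SAT 24 months replicate 1 limit every gene under about 71.4 CPM, its floor of 3 UMIs.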
